A study of Mus musculus with 2 samples.

Results

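Gata3 binding was examined at 10 of 21938 protein-coding genes, those that encode transcription factors known to act beside Gata3 in TH2 cells. These are Maf, Gfi1, Nfil3, Pparg, Irf4, Bhlhe41 (also called Dec2), Bhlhe40, Prdm1, Ikzf1 and Epas1. For each gene, all reads in its gene body and in 50 kb on either side were used, and this stretch is called its locus. The 10 loci covered 1468 kb, and no locus overlapped another. The data are 2 Gata3 chromatin immunoprecipitation-sequencing (ChIP-seq) libraries from mouse splenic TH2 cells grown in culture, which the labels number 1 and 2 and describe alike. The labels give no strain, age, treatment, time or genotype, and the extraction field names ILC2 where all other fields name TH2 cells. Nothing in the labels says whether the libraries came from separate animals or cultures, so differences between them may be technical. The tests measure counting error only, within a library or between these libraries, and no spread between animals.

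Gata3 is the zinc-finger factor that directs CD4+ T cells into the TH2 lineage, and it binds GATA sequences in the regulatory DNA of its target genes. It does not act alone. Some of its partners activate cytokine genes with it (Maf, Irf4), some repress genes of other lineages (Gfi1, Ikzf1, Prdm1), and others tie the cell's state to lipids (Pparg) or oxygen (Epas1). Gata3 can also bind near the genes of its partners, although binding near a gene does not show that the gene responds.

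Library 1 held 40526613 reads and library 2 held 24970952 reads, and each came from a different sequencing instrument, so a difference between the libraries and between sequencing runs cannot be told apart. Reads were counted in 200-bp windows and given as reads per 1000000 (RPM) of the library's reads on chromosomes 1 to 19, X and Y. A peak is a run of windows that pass a one-sided exact Poisson test against the highest of the library mean and the 5-kb and 10-kb means around the window (Benjamini-Hochberg q of 0.01), and its summit is the centre of its window with the most reads. A peak of library 1 that overlaps a peak of library 2 is called shared, and its height is the lower of its RPM values in the 2 libraries. There were 23806 shared peaks in the genome. Neither an input nor an IgG control entered the analysis, so all heights are read against the same library. The reads come from a population of cells, and a larger share of cells bound cannot be told apart from longer binding per cell. Expression markers cannot be read from genomic DNA. The loci of Il4, Il13, Il5, Gata3 and Il1rl1, known Gata3 targets in TH2 cells, held 8, 8, 6, 6 and 5 shared peaks, where the median of all protein-coding genes was 2. The loci of Il4 and Il13 overlap, and their 8 peaks are the same.

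The sequences under 10 of the summits are shown because the results turn on them. Each is the plus strand of GRCm38 from 100 bp before to 100 bp after the summit. Capitals mark the searched words, which are GATA preceded by A or T and followed by A or G (called a GATA sequence) and the AP-1 word TGACTCA with its variant TGAGTCA, each on either strand. The following 7 contain a GATA sequence. They are the tallest peaks of Pparg, Ikzf1, Nfil3 and Epas1, the peaks at the starts of Irf4 and Ikzf1, and the peak at a start inside Pparg.
Pparg, chr6:115528350-115528550: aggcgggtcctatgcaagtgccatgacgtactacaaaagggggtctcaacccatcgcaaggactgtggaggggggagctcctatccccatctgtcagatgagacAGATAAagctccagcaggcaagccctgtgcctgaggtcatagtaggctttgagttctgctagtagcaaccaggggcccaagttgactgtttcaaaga
Ikzf1, chr11:11820600-11820800: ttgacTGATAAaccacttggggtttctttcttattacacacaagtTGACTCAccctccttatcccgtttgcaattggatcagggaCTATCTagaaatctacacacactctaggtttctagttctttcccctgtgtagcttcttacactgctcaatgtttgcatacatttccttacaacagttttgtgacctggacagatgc
Nfil3, chr13:52922100-52922300: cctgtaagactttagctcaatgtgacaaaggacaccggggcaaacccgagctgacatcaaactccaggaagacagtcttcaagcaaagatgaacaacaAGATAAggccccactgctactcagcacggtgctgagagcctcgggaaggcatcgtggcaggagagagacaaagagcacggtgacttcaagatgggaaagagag
Epas1, chr17:86852750-86852950: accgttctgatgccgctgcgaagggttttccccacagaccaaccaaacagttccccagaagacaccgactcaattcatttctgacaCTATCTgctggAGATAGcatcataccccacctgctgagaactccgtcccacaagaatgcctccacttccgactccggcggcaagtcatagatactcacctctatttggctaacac
Irf4, chr13:30747400-30747600: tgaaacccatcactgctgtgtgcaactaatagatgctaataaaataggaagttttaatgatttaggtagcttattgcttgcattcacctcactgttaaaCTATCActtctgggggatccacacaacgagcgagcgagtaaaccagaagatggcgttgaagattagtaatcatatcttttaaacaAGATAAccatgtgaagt
Ikzf1, chr11:11686850-11687050: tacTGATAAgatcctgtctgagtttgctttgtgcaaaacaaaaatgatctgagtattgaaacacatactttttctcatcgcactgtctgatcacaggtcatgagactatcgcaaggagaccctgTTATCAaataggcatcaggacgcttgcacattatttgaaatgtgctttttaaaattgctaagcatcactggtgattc
Pparg, chr6:115440600-115440800: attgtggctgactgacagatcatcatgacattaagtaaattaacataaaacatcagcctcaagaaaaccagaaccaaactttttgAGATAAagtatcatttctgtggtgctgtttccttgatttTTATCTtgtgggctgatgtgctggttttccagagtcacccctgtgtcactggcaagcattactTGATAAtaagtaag

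The other 3 have no GATA sequence in the window. They are the tallest Gfi1 peak, which has a pair of AP-1 sequences, and the peaks at the starts of Nfil3 and Gfi1, which have neither.
Gfi1, chr5:107754900-107755100: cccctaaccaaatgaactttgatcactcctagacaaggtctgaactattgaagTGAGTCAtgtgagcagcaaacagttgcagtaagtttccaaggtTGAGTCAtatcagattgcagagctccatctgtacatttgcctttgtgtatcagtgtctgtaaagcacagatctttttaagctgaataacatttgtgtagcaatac
Nfil3, chr13:52982900-52983100: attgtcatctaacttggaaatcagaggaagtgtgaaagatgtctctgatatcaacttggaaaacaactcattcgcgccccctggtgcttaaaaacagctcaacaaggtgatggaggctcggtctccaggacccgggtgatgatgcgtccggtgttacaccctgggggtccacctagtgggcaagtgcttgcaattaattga
Gfi1, chr5:107724700-107724900: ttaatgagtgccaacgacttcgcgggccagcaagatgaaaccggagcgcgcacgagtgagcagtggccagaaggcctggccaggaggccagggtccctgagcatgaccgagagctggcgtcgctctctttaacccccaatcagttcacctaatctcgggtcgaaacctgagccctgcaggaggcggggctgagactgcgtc

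In all, 9 of the 10 loci held at least 1 shared peak, against 71.2% of all protein-coding genes. A shared peak lay in the gene body of 6 members (Gfi1, Pparg, Irf4, Prdm1, Ikzf1 and Epas1), against 29.4% of all genes. That share was not matched for gene length. The gene bodies of Pparg, Prdm1, Ikzf1 and Epas1 were 79711 to 129449 bp long, and those of Gfi1 and Irf4 were 9380 and 17751 bp. At the gene's annotated start (within 2 kb), 4 members had a shared peak (Gfi1, Nfil3, Irf4 and Ikzf1), against 11.7% of all genes. If any annotated transcript start of a gene is allowed, Pparg and Prdm1 join them, giving 6 of 10 against 17.2% of all genes. With the limit at 1 kb from the gene's annotated start no member was left. Other annotated transcript starts lay within 1 kb of a shared peak at Gfi1 (457 bp), Ikzf1 (505 bp) and Pparg (725 bp). The share of all genes at 1 kb is not given for either measure. The 10 loci contained 62 shared peaks. Ikzf1 had 13, Pparg 12, Irf4 8, Gfi1 and Bhlhe40 7 each, Epas1 6, Nfil3 and Prdm1 4 each, Bhlhe41 1 and Maf 0. Thus 6 of the 10 members were above the 95th percentile of shared peaks per locus over all genes. Longer genes have longer loci, and per 100 kb of locus the count ran from 0 in Maf to 6.92 in Ikzf1, with a median of 4.37 over the members and 0.978 over all genes. Per 100 kb, Irf4 (6.79), Bhlhe40 (6.59) and Gfi1 (6.40) came next to Ikzf1, ahead of Pparg (5.23). No test of the list was made.

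**Figure D1:**
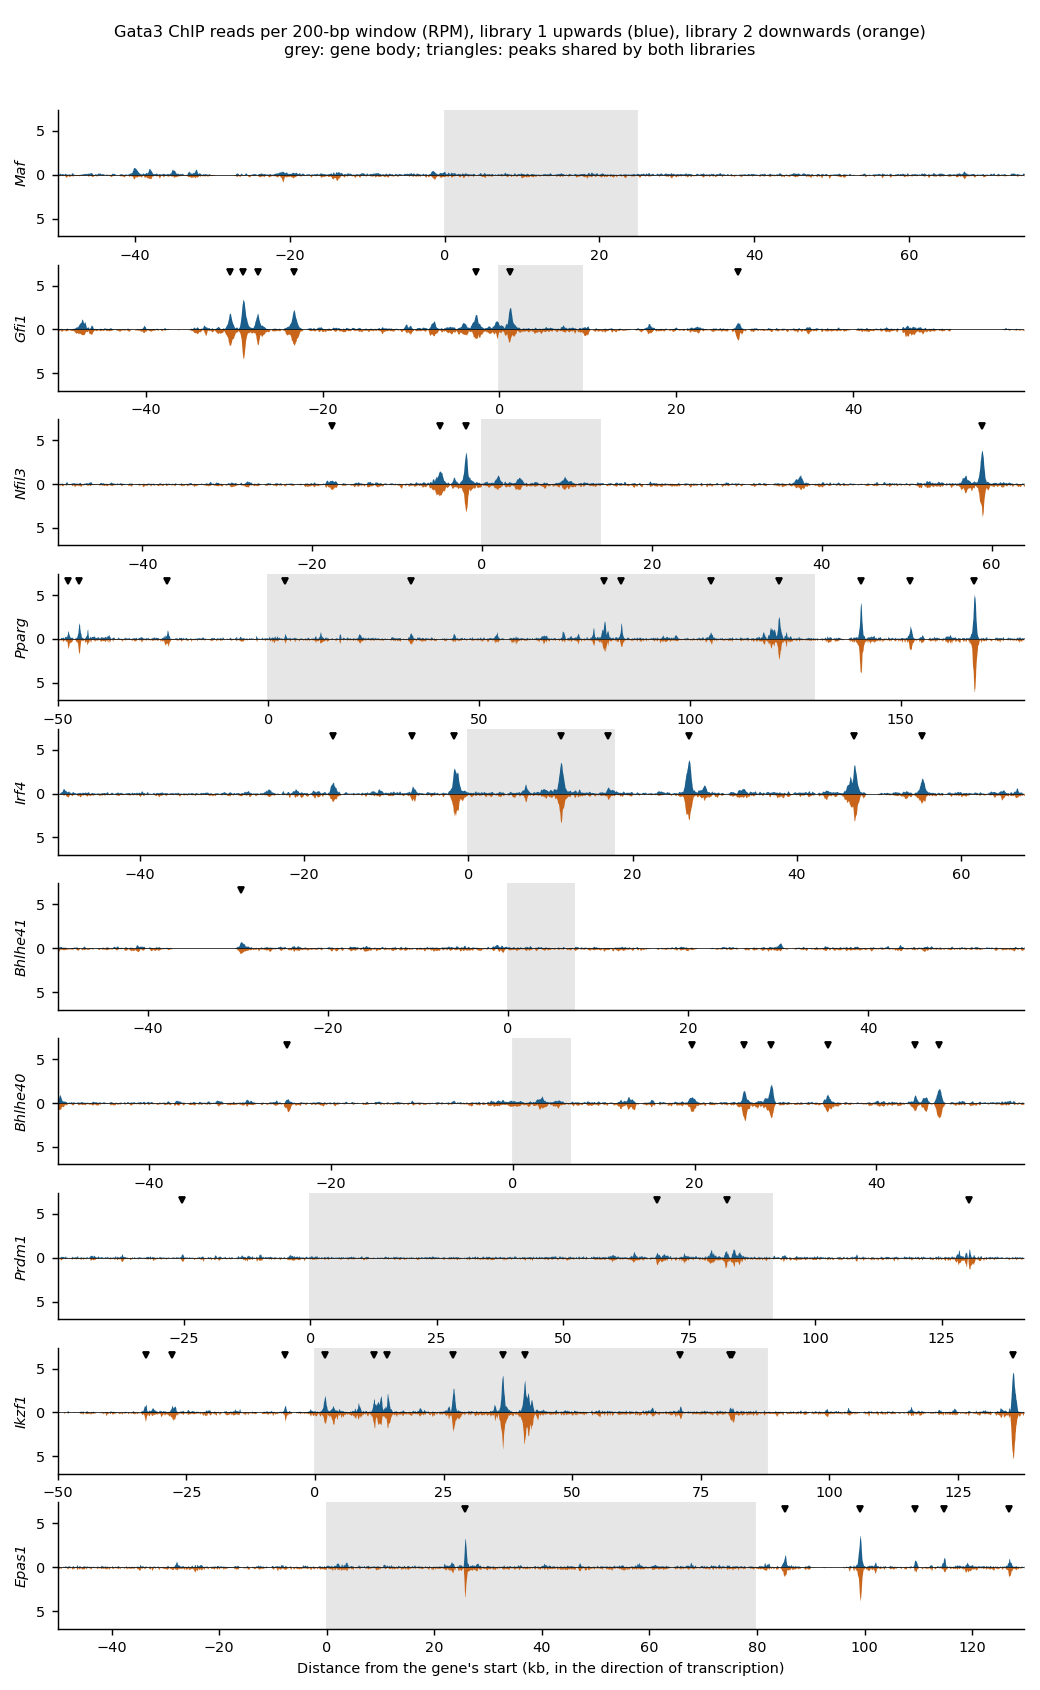
Reads in 200-bp windows (RPM, y axis) along the 10 loci, plotted against the distance in kb from the annotated start of each gene in the direction of transcription (x axis), for library 1 (blue, upwards) and library 2 (orange, downwards). Grey marks the gene body and triangles the 62 shared peaks. Pparg and Ikzf1 hold the tallest peaks, most of the signal at Bhlhe40 lies downstream of the gene, and Maf and Bhlhe41 are close to flat.

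Irf4 encodes interferon regulatory factor 4, which T cell receptor signals induce and which is needed for TH2 cytokine production. Its locus (gene body chr13:30749226-30766976, plus strand) had the highest read density of the 10 in library 1, at 3.50 times the genome mean, and 3.40 times in library 2. The median over all genes was 1.36 times in library 1 and 1.33 times in library 2. The 8 shared peaks included 4 tall ones. With a q of 1e-10, 4 shared peaks were left at Irf4, and with at least 5-fold over the local background 0 were left. The tallest by the lower library lay in intron 7, 11.3 kb from the start, with 145 reads in library 1 (3.58 RPM, 95% interval 3.02 to 4.21) and 83 in library 2 (3.33 RPM, 2.65 to 4.12). A downstream peak 26.9 kb from the start had 158 and 76 reads (3.90 and 3.04 RPM), and another at 47.0 kb had 134 and 78 (3.31 and 3.13 RPM). The start peak, at 1.73 kb upstream, had 119 and 64 reads (2.94 and 2.56 RPM). The intervals of the libraries overlapped at each of these peaks. The sequence under the start peak, shown with the others, has a GATA word centred 1.5 bp from the summit and another further out, while the taller intron 7 peak has none within 100 bp. The peaks lie between Dusp22 and Exoc2, the coding neighbours that reach into the locus, and no shared summit fell inside either neighbour.

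Maf encodes c-Maf, a basic leucine zipper factor that activates Il4. It was the only member without a shared peak. Its locus (gene body chr8:115682942-115707794, minus strand) held 5 peaks in library 1 and 2 in library 2, and none of them overlapped. Library 1 had 4 of its 5 peaks between 32.1 and 40.1 kb upstream of the start, the tallest with 34 reads, where library 2 had 12 reads in the same window (0.839 and 0.481 RPM). The 2 peaks of library 2 lay 13.9 and 20.9 kb upstream, with 17 and 21 reads, where library 1 had 13 and 15. All of these counts are low in both libraries. At the start itself the tallest window had 19 reads in library 1 and 15 in library 2 (0.469 and 0.601 RPM). The read density over the locus was 1.61 and 1.63 times the genome mean, at the 77.2 and 82.1 percentiles of all genes. When the central 1 kb was left out of the local background, 2 shared peaks were called at Maf, and widening the locus to 100 kb on either side also gave 2. A shared peak was therefore not detectable here at these thresholds, which does not show that Gata3 is absent.

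Gfi1 encodes a zinc-finger repressor that supports the expansion of TH2 cells. The 7 shared peaks of its locus (gene body chr5:107716657-107726036, minus strand) included 5 upstream, and 4 of those lay 23.3 to 30.5 kb upstream, within the neighbouring gene Evi5. The tallest, at 29.0 kb, had 138 reads in library 1 and 83 in library 2 (3.41 RPM, 2.86 to 4.03, and 3.33 RPM, 2.65 to 4.12). Its window has no GATA sequence and 2 AP-1 sequences. The start peak lay 1.24 kb inside the gene record and 457 bp upstream of the start of the principal transcript. It had 101 reads in library 1 and 36 in library 2, or 2.49 RPM (2.03 to 3.03) and 1.44 RPM (1.01 to 1.997). Here the intervals of the 2 libraries did not overlap. Read in the same window, library 2 reached 0.434 times the RPM of library 1 (adjusted p = 0.013, two-sided exact binomial test with Benjamini-Hochberg adjustment over all 23806 shared peaks). With the libraries scaled by the median ratio of all shared peaks the adjusted p of the exact test was 0.0911, and the call was lost. The sequence under it is rich in G and C (61.7%) and holds neither searched word.

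Ikzf1 encodes Ikaros, a zinc-finger factor that shapes chromatin in lymphocytes and silences TH1 genes in TH2 cells. It had 13 shared peaks, at the 99.7th percentile of all genes, and 9 of them lay in the gene body (chr11:11685003-11772926, plus strand). The order of Ikzf1 and Pparg by count was not stable. Library 1 alone gave 22 peaks at Ikzf1 and 25 at Pparg, a background without the central 1 kb gave 13 and 14, windows of 100 bp gave 10 and 11, and a flank of 100 kb gave 17 each. The tallest in the body lay in intron 3, 36.5 kb from the start, with 173 and 105 reads (4.27 and 4.21 RPM). The same intron had 2 more tall summits at 26.9 and 40.7 kb, with 112 and 56 reads (2.77 and 2.24 RPM) and with 149 and 89 reads (3.68 and 3.57 RPM). The tallest of the locus, 136 kb from the start, had 188 and 132 reads (4.64 RPM, 4.002 to 5.35, and 5.29 RPM, 4.42 to 6.27). It lies past the end of Ikzf1 inside Ddc, which encodes an enzyme of dopamine and serotonin synthesis, and the nearest start of a coding gene record is that of Fignl1. The start peak had 79 and 32 reads (1.95 and 1.28 RPM), in intron 1, 505 bp from an annotated transcript start. Of the library 1 peaks, 2 in intron 7, at 80.6 and 81.1 kb, overlapped the same peak of library 2, so the 13 shared peaks rest on 12 peaks of library 2.

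Prdm1 encodes Blimp-1, a repressor of effector T cell and B cell programmes. Its 4 shared peaks (gene body chr10:44437177-44528501, minus strand) had a median height of 0.728 RPM, against 0.801 RPM for all shared peaks. The tallest, 130 kb downstream of the annotated start and past the end of the gene, had 41 reads in library 1 and 33 in library 2 (1.01 and 1.32 RPM). A peak in intron 4 had 34 and 28 reads (0.839 and 1.12 RPM). The gene record starts at an upstream transcript, whereas the principal transcript starts 69.8 kb further on, and a peak lay 1163 bp upstream of the latter with 25 and 20 reads (0.617 and 0.801 RPM). No Prdm1 peak passed a q of 1e-10 in both libraries. Of its 14 library 1 peaks, 10 were not called in library 2 (71.4%), close to the 66.8% of all library 1 peaks.

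Nfil3 encodes a basic leucine zipper repressor that acts in several T helper and innate lymphoid cells. It had 4 shared peaks (gene body chr13:52967209-52981073, minus strand), and 2 of them were among the tallest in these loci. The start peak lay 1.93 kb upstream, with 148 reads in library 1 and 80 in library 2 (3.65 RPM, 3.09 to 4.29, and 3.21 RPM, 2.54 to 3.99). It was the tallest of the 4 start peaks in both libraries, and has no GATA sequence within 100 bp of its summit. The other tall peak, with 157 and 92 reads (3.88 and 3.69 RPM), lay 58.9 kb from the start within the next gene, Auh, an RNA-binding enzyme of mitochondria. A GATA sequence is centred 0.5 bp from that summit. The gene body held no shared peak.

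Bhlhe40 and Bhlhe41 encode closely related basic helix-loop-helix repressors, which bind the same E-box. The former had 7 shared peaks and the latter 1. Library 1 alone gave 12 and 5 peaks, library 2 alone gave 8 and 1, and at least 5-fold over the local background left 0 shared peaks at both. At Bhlhe40 (chr6:108660629-108666925, plus strand) 6 of the 7 lay 19.7 to 46.9 kb downstream of the start, beyond the end of the gene, and the body and the start had none. The tallest, at 28.4 kb, had 87 reads in library 1 and 43 in library 2 (2.15 and 1.72 RPM), and the next, at 46.9 kb, had 66 and 42 (1.63 and 1.68 RPM). All 7 summits had a GATA sequence. The single upstream peak was lower in library 1 (19 reads, 0.469 RPM) than in library 2 (25 reads, 1.002 RPM), and this difference did not pass the adjustment (adjusted p = 0.251, exact binomial test on the reads of the same window). The peak at Bhlhe41 (gene body chr6:145858243-145865558, minus strand) lay 29.6 kb upstream, with 32 and 15 reads (0.790 and 0.601 RPM), and was below the median height of all shared peaks in both libraries (0.801 RPM). The read density was 2.25 and 2.64 times the genome mean at Bhlhe40, and 1.45 and 1.41 times at Bhlhe41. At Bhlhe41, 10.3% of the 200-bp bins held no read in either library, the highest share of the 10 loci, against 1.51% at Bhlhe40. This share did not follow the number of shared peaks, as it was 8.78% at Gfi1 (7 shared peaks) and 2.88% at Maf (0).

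Pparg encodes a lipid-activated nuclear receptor that promotes TH2 and ILC2 responses. It had the tallest shared peak of the 10 loci. This lay 167 kb from the annotated start and past the end of the gene (chr6:115360951-115490399, plus strand), with 209 reads in library 1 and 151 in library 2 (5.16 RPM, 4.48 to 5.91, and 6.05 RPM, 5.12 to 7.10), at the 99.9th percentile of all shared peaks. Over the whole peak, library 2 had 1.23 times the RPM of library 1 (adjusted p = 0.00437, exact binomial test), whereas at the summit of library 1 the adjusted p was 0.482. Its GATA sequence is centred 6.5 bp from the summit. A further downstream peak at 141 kb had 169 and 96 reads (4.17 and 3.85 RPM). In the gene body there were 6 shared peaks. The tallest of these was in intron 6, with 106 and 59 reads (2.62 and 2.36 RPM). A peak in intron 2 of the principal transcript lay 725 bp from another annotated start of Pparg and has 3 GATA sequences. It had 85 reads in library 1 and 24 in the same window of library 2, or 0.458 times the RPM (adjusted p = 0.038, exact binomial test). At its own summit, library 2 had 36 reads (1.44 RPM, 1.01 to 1.997), and this interval overlapped that of library 1 (2.10 RPM, 1.68 to 2.59). In the same exact test, this call was lost when the libraries were scaled by the median ratio (adjusted p = 0.194) and when reads were counted over the whole peak (adjusted p = 0.0652). At the annotated start of the gene record the tallest window had 14 and 10 reads (0.346 and 0.401 RPM), and no shared peak was called there.

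Epas1 encodes HIF-2α, an oxygen-regulated transcription factor. Its 6 shared peaks (gene body chr17:86753700-86833410, plus strand) included 1 in the gene, in intron 1 at 25.7 kb, with 134 reads in library 1 and 86 in library 2 (3.31 and 3.45 RPM). The other 5 lay 85.2 to 127 kb from the start, past the end of the gene. The tallest, at 99.2 kb, had 147 and 97 reads (3.63 RPM, 3.07 to 4.27, and 3.89 RPM, 3.15 to 4.74). Both tall peaks stood 6.55-fold to 6.85-fold over their local background, among the highest of the 62. The downstream peak has 2 GATA sequences, the nearer centred 0.5 bp from the summit, as printed with the other sequences.

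**Figure D2:**
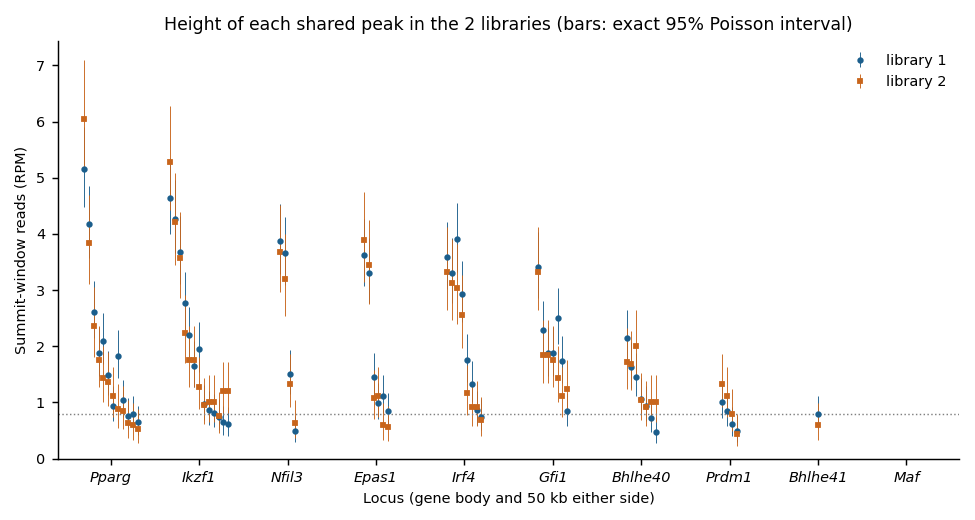
Height in RPM (y axis) of each shared peak in library 1 (blue circles) and library 2 (orange squares), with exact 95% Poisson intervals that cover counting error only, by locus (x axis). Loci are ordered by their tallest peak, from Pparg (5.16 and 6.05 RPM) to Bhlhe41 (0.790 and 0.601 RPM), Maf has none, and the dotted line is the median height of all shared peaks in the genome (0.801 RPM).

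The heights of the 62 peaks ran from 0.441 to 5.16 RPM by the lower library. Their median was 1.14 RPM, and 16 of the 62 were above the 90th percentile of all shared peaks (1.98 RPM). Those 16 belonged to 6 members, namely Pparg, Ikzf1, Irf4, Nfil3, Epas1 and Gfi1. By the height of their tallest peak, the members ran from Pparg down to Ikzf1, Nfil3, Epas1, Irf4 and Gfi1 (tied at 3.33 RPM), Bhlhe40, Prdm1 and Bhlhe41. From Pparg to Gfi1 the intervals of neighbours in this order overlapped in both libraries, whereas the interval of Bhlhe40 lay below that of Gfi1 in both. By position, 20 summits lay upstream of the member gene, 21 in the gene body (16 of them in an intron of the principal transcript) and 21 downstream. Measured to the start of each gene record, and not to the starts of other transcripts, the member was the nearest protein-coding gene in 45 of the 62. Of the member summits, 83.9% were over 10 kb from the record start of any protein-coding gene, as were 73.5% of all shared summits, and 6.45% against 10.0% were within 2 kb of such a start. The Prdm1 peak near the principal transcript start and the Pparg peak near an inner start count as distant by this measure. The 62 peaks were 200 to 1400 bp wide, with a median of 700 bp.

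The libraries were compared at each summit of library 1. In 37 of the 62 peaks the summits of the libraries lay within 50 bp of each other. With each library read at its own summit, the log2 RPM values of the libraries had a Pearson r of 0.904 across the 62 peaks. It was 0.855 across all shared peaks. Both are given as a description over peaks that share their libraries, and not for the same window. After adjustment, 2 of the 62 differed between the libraries (the start peak of Gfi1 and the intron 2 peak of Pparg), or 3.23%, against 1.94% of all shared peaks. Both were lower in library 2. The window is the one with the most reads in library 1, a choice that favours library 1, and the test sets 1 library against another on counting error alone, so nothing is read from these 2 calls. The median ratio of library 2 to library 1 was 0.881 in the members and 0.811 over all shared peaks. With the libraries scaled by the median ratio of all shared peaks, 0 of the 62 differed, against 1.8% of all shared peaks. Reads were also counted over the whole peak, within the bounds of the library 1 peak, a choice that may again favour library 1. In that count 5 of the 62 differed (8.06%), a smaller share than the 14.5% of all shared peaks. The start peak of Gfi1 was among these 5 (adjusted p = 0.000119, exact binomial test), but the intron 2 peak of Pparg was not (adjusted p = 0.0652). The other 4 were 2 Pparg peaks, 83.7 and 167 kb from the start, and 1 peak each at Ikzf1 (26.9 kb) and Epas1 (115 kb). The tallest of the 62, the Pparg peak at 167 kb, was higher in library 2 (18.7 and 23.0 RPM over the whole peak in libraries 1 and 2, adjusted p = 0.00437, exact binomial test), and the other 4 of the 5 were lower. Of the library 1 peaks, 74 of 136 (54.4%) had no overlapping peak in library 2, against 66.8% of all library 1 peaks. The other way round it was 5 of 67 (7.46%), against 15% of all library 2 peaks. Thinning library 1 to the depth of library 2 left 58 shared peaks.

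**Figure D3:**
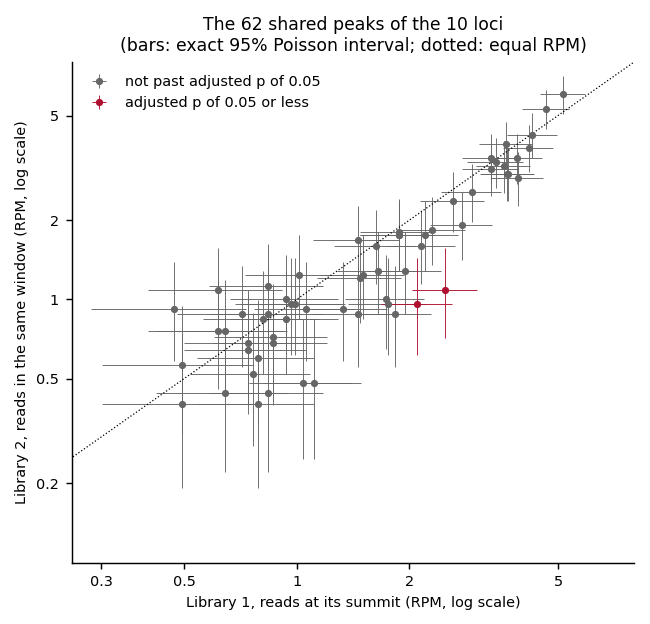
RPM in library 1 at its summit (x axis, log scale) against RPM in the same window of library 2 (y axis, log scale) for the 62 shared peaks, with exact 95% Poisson intervals. The dotted line marks equal RPM, and the 2 red points, 0.434 and 0.458 times as high in library 2, are the start peak of Gfi1 and the intron 2 peak of Pparg.

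GATA sequences lay within 100 bp of 49 of the 62 summits (79.0%, exact 95% interval 66.8% to 88.3%), and of 71.0% of all shared summits. In windows of the same length 1 kb from the summits, the share was 33.9% in the members and 33.4% over all shared peaks. The interval of the members includes the genome-wide share, but it treats the 62 summits as independent draws. They come from 9 loci, with up to 4 within 20 kb, so the interval is given as a description only. At least 2 GATA sequences were found at 23 summits (37.1%, against 25.7% of all). The nearest was a median of 35.5 bp from the summit, and 33.5 bp over all shared peaks. AP-1 sequences, bound by Jun and Batf proteins, were found at 9 summits (14.5%, against 12.3% of all and 3.55% of the windows 1 kb away), and 7 of the 9 also had a GATA sequence. The other 2 were the tallest Gfi1 peak and an upstream Pparg peak. The remaining 11 summits had neither. Of the tall peaks above the 90th percentile, 13 of 16 had a GATA sequence, near the 79.0% of all 62 summits. The exceptions were the tallest Gfi1 peak, the start peak of Nfil3 and the intron 7 peak of Irf4. The share among all tall shared peaks of the genome is not given, so nothing is read from this count.

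The binding sequences of the partner factors themselves were searched in the same windows. The Ikaros word TGGGAA was present at 12 summits (19.4%, against 15.7% of all shared summits and 17.5% of the windows 1 kb away). The Gfi1 word AATCNNNGC was at 4 (6.45%, against 7.12% and 8.58%), the Maf word TGCTGAC at 4 (6.45%, against 3.34% and 2.84%), and the E-box CACGTG at 2 (3.23%, against 2.62% and 2.38%). The Nfil3 words (TTACGTAA or TTATGTAA), the hypoxia response word ACGTGC and the IRF and PPAR words were at 0 of the 62, where they were at 0.840%, 2.44%, 3.14% and 0.0420% of all shared summits. All words were searched on both strands. The RUNX word TGTGGT was at 11 summits (17.7%, against 17.2% and 14.7%).

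**Figure D4:**
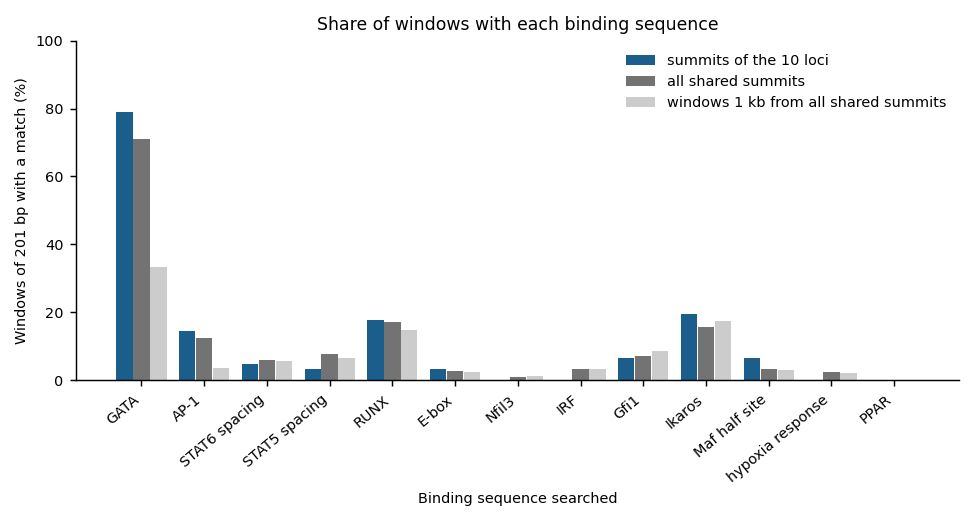
Share of 201-bp windows with each searched binding sequence (y axis, percent, from 0 to 100) for the 62 summits of the 10 loci (blue), all shared summits (dark grey) and windows 1 kb from all shared summits (light grey). GATA stands at 79.0%, 71.0% and 33.4% and AP-1 at 14.5%, 12.3% and 3.55%.

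The families of these factors were listed in the same way. Among 21 relatives of the members, 19 had a shared peak in the locus, 10 in the gene body and 5 at the start, with a median of 3 shared peaks per locus where the members had 6.5. Ikzf3 (Aiolos), with 12 shared peaks, came close to Ikzf1, and Ikzf2 (Helios) had 5. Irf2 had 10 beside 8 at Irf4, but fewer per 100 kb of locus (4.81 and 6.79), and Irf1 and Irf8 had 3 each. Ppard had 6 and Ppara 3 beside 12 at Pparg. Hif1a, the other main oxygen-regulated factor, had 5 beside 6 at Epas1 (3.42 and 3.34 per 100 kb), with a tallest height of 4.37 RPM. In the Maf family, Maff had 2, Mafa 1 and Mafg and Mafk 0. Gfi1b had 5 beside 7 at Gfi1. Hlf, Dbp and Tef, relatives of Nfil3, had 3, 2 and 1. Prdm2 had 3 beside 4 at Prdm1. Loci differ in length between relatives, and no test between genes was made.

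Other factors of TH2 cells (10 genes) had a shared peak in the locus in 9, in the body in 8 and at the start in 1, with a median of 5. Rbpj, the DNA-binding partner of Notch, had 14, and Junb had 0. Stat5a (5) and Stat5b (6), both on chromosome 11, had the same tallest height (2.16 RPM), so their counts may include the same peaks. The 10 TH2 effector genes had a shared peak in 10, 3 and 5, with a median of 6, although Il4 and Il13 count the same 8 peaks, with the same tallest peak of 5.43 RPM. Of 10 developmental factors of other tissues, 4 had a shared peak in the locus, 2 in the body and 0 at the start, with a median of 0. Per 100 kb of locus, the median count was 4.97 in the effector genes, 4.37 in the members, 3.11 in the other TH2 factors and 1.95 in the relatives. The median tallest height was 3.62 RPM in the effector genes and 3.33 RPM in the members, with loci without a shared peak counted as 0. The read density over the loci had a median of 2.42 and 2.62 times the genome mean in the 2 libraries for the 10 partner factors and 2.299 and 2.48 for the effector genes. It was 2.07 and 2.04 for the other TH2 factors, 1.63 and 1.53 for the relatives and 1.33 and 1.39 for the developmental factors. The read density was above the 97th percentile of all genes in both libraries at 7 of the 10 members, the exceptions being Maf, Bhlhe41 and Prdm1.

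**Figure D5:**
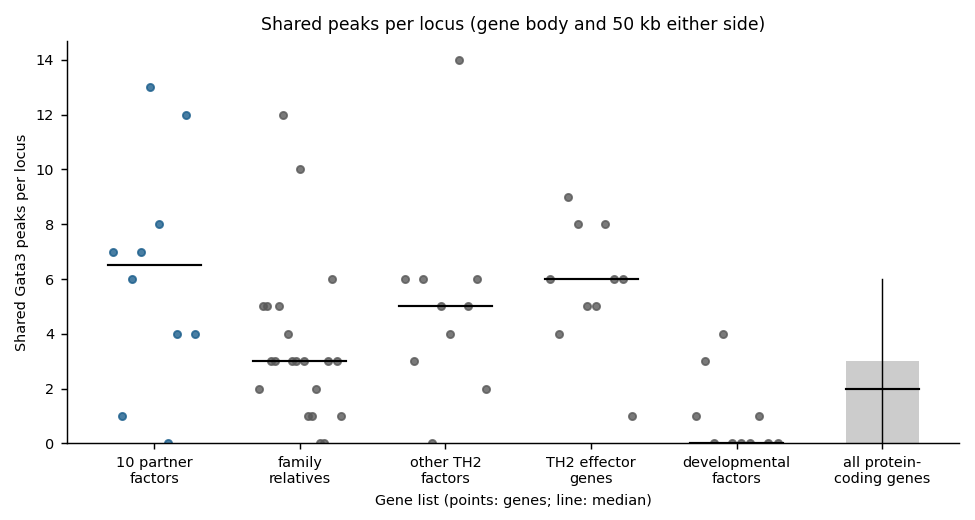
Shared peaks per locus (y axis) for the 10 partner factors (blue), the 4 other gene lists (grey points) and all protein-coding genes (bar from the 25th to the 75th percentile, whisker from the 5th to the 95th), with the median as a black line. The members range from 0 to 13 with a median of 6.5, and all genes have a median of 2.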

How the data were processed

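Gata3 ChIPmentation libraries of TH2 cells (2, of 1 condition) were analysed. According to the paper and the labels, single reads were aligned to GRCm38 with Bowtie2 2.3.5.1 and reads without a unique position were removed. The submitters' processing notes also list MACS2 2.1.2, with no role given. The authors deposited 1 line per read, with its position, strand and mapping quality score (22 to 44). Duplicates had been removed (0 reads shared a 5′ end and strand), which limits peak height.

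Reads were shifted by 100 bp to 3′ and counted in 200-bp windows every 50 bp, with a mean of 2.97 reads per window in library 1 and 1.83 in library 2. Significant windows within 100 bp were joined. Peak calls and Benjamini-Hochberg adjustments were genome-wide. Local means include the peak's own reads, so folds are understated. Poisson intervals (95%, exact) cover counting error only. The binomial interval of the GATA share (95%, exact) treats the summits as independent draws and does not cover counting error. Peaks were given to genes of GENCODE M21 by the library 1 summit. The principal transcript was the APPRIS principal, then that with the longest coding sequence.

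The 10 members are all named, with the tallest peak of each, its start peaks and, where needed, the next tallest, and coding neighbours inside a locus. The other lists (family relatives, other TH2 factors, TH2 effector genes, developmental factors) are given as counts. Some single results are not reported here. Members and lists were chosen with earlier results of these data known. Scripts were tested on simulated data. Alternatives covered the threshold, window, shift, background, mapping quality, overlap, depth, locus, start and motif definitions. Python 3.11.15, NumPy 2.4.6, SciPy 1.17.1, pysam and Matplotlib 3.10.9 were used.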

Additional observations from a re-analysis of the deposited data

How the results depend on the processing

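The 62 shared peaks became 22 with a q of 1e-10 and 9 with at least 5-fold over the local background. These are 35.5% and 14.5% of the 62, where the counts over the genome came to 21.6% and 26.7% of all shared peaks. Members with a start peak then numbered 2 and 1 (all genes 2.77% and 2.67%), and members with a peak in the body 4 and 2 (all genes 9.595% and 11.4%). At 5-fold, Irf4, Bhlhe40, Prdm1 and Bhlhe41 kept 0 shared peaks. Ikzf1 kept 3, Nfil3 and Epas1 2 each, and Gfi1 and Pparg 1 each. Each library alone gave 67 to 136 peaks, the latter in library 1, with 4 to 5 members at the start, 6 to 8 in the body and 72.1% to 76.1% of summits with a GATA sequence. Over the genome, library 1 had 71726 peaks and library 2 had 28204, and the shares of all genes by 1 library are not given. A flank of 20 kb gave 36 peaks and a flank of 100 kb gave 98. A start limit of 1 kb gave 0 members, because the 4 start peaks lie 1.24 to 1.95 kb from the gene's start, and the share of all genes at this limit is not given. This limit was set from the gene record's start only. Gfi1, Ikzf1 and Pparg each had a shared peak 457, 505 and 725 bp from another annotated transcript start. GATA sequences were at 46.8% of summits within 50 bp and at 41.9% with AGATAA alone, against 46.8% and 40.8% of all shared summits. The summits that differed between the libraries were 0 when scaled by the median ratio (1.8% of all shared summits) and 5 over the whole peak (14.5% of all). Windows of 400 and 100 bp, no shift, mapping quality of at least 30, a background without the central 1 kb, summits within 100 bp and a thinned library 1 kept the number of shared peaks between 49 and 77. The low peaks rest on few reads, and the mean was 2.97 and 1.83 reads per window in libraries 1 and 2. No paired analysis was possible because all samples belong to 1 group.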

Other observations

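Peaks called in library 1 alone were most frequent at Pparg (13), Prdm1 (10) and Ikzf1 (9), and peaks called in library 2 alone were found at Maf (2), Irf4 (1), Bhlhe40 (1) and Ikzf1 (1). The Pparg, Prdm1 and Ikzf1 loci are the longest of the 10 (229, 191 and 188 kb), and these counts were not scaled to length. Peaks of library 1 alone outnumbered the shared peaks at 7 of the 10 members, the exceptions being Irf4, Bhlhe40 and Ikzf1, and at 62.6% of all protein-coding genes. The share of a locus's reads that fell in its shared peaks was 0% at Maf, 3.64% and 2.82% at Bhlhe41 and 3.63% and 4.48% at Prdm1 in libraries 1 and 2, and reached 37.7% and 32.4% at Irf4. Irf4 and Ikzf1 (33.9% and 31.3%) were the highest in both.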
